A study of Homo sapiens with 10 samples.

Results

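Unliganded PR-A K388R was compared with cells that hold no progesterone receptor (PR). The comparison used 4 of the 10 arrays of the series, 2 of vehicle-treated PR-A K388R cells and 2 of vehicle-treated T47D-Y cells, and took the log2 signal of PR-A K388R minus that of T47D-Y for each probe set with 1 gene symbol. T47D-Y is a line cloned without PR from T47D, a luminal, estrogen receptor-positive human breast cancer line. PR-A K388R is T47D-Y carrying a stably expressed PR-A in which the lysine that K388R names is replaced by arginine, and WT PR-A is the corresponding line with the unmutated receptor. Per the labels all 3 lines were grown with charcoal-stripped serum, which is depleted of steroids, while the study's methods mention no stripping of the serum in which these cells were maintained, so the cells are unliganded in that no progestin was added. The vehicle was ethanol for 24 h. Where R5020-treated arrays are used, the synthetic progestin R5020 was given at 10 nM for 24 h. No line carrying an empty vector and no second PR-A K388R line is among the arrays, so the presence of the receptor and other differences between the lines cannot be told apart.

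PR is a nuclear receptor that binds DNA when a progestin occupies it and then raises or lowers the transcription of nearby genes. PR-A is the shorter of its isoforms and lacks the most N-terminal stretch of PR-B. That lysine is where the small protein SUMO is attached to the N-terminal region, and K388R removes that attachment site; sumoylation is known to restrain PR transcriptional activity. Receptors of this family can also occupy sites and recruit coregulators without hormone, and the vehicle arrays address what the mutant receptor's cells express in that state.

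The arrays were Affymetrix U133 Plus 2 chips, and the values are log2 signals, so a difference of 1 is a 2-fold change. The table analysed here holds 16376 probe sets, of which 12547 have 1 gene symbol and represent 8904 genes; a gene with several probe sets is represented by the one with the highest mean. PGR, which encodes PR, has no probe set among them, so the receptor itself was not measured here. Array medians lay between 4.59 and 4.69, and the lower quartile of an array, used below as the level near the floor, between 3.28 and 3.39. The 2 PR-A K388R arrays correlated with r = 0.996 over probe sets and the 2 T47D-Y arrays with r = 0.997, against 0.989 to 0.991 between the lines. Of 10 luminal epithelial markers 7 were measured, at 9.17 to 14.29 on the 4 arrays, and none was called; their summed level was 81.0 to 81.3 in PR-A K388R and 81.7 to 82.3 in T47D-Y. The 7 measured leukocyte markers lay between 2.59 and 6.04 and the 7 endothelial markers between 2.61 and 7.60 with none called; the summed leukocyte level was 30.1 and 30.7 in PR-A K388R and 29.1 and 28.8 in T47D-Y, and the endothelial one 29.9 and 30.3 against 30.0 and 29.8. The 5 measured myoepithelial markers lay between 3.92 and 7.74, summing to 25.8 and 26.2 against 24.7 and 25 in T47D-Y, with none called. The part of these small shifts in the results was not tested. Of 8 measured fibroblast markers only COL1A1, a fibrillar collagen chain, was called, lower by 1.08 (adjusted p = 0.0245). The other fibroblast markers differed by -0.03 for LUM to 0.36 for POSTN. The summed fibroblast level was 34.8 and 35.6 in PR-A K388R and 35.1 and 35.3 in T47D-Y. Whether the replicates are separate cultures is not stated in the labels; p-values here reflect how far these arrays differ from each other, which may be technical spread.

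The line with unliganded PR-A K388R differed from T47D-Y in a few percent of genes, more often downwards. A probe set was called at a Benjamini-Hochberg adjusted p under 0.05 in limma with a fold of at least 1.5. At that threshold 154 probe sets were higher and 299 lower, which is 1.23% and 2.38% of those tested. Counted by gene, 120 of 8904 were higher (1.35%) and 221 lower (2.48%). The median difference was 0.90 among the higher genes and -0.91 among the lower ones, against 0.05 over all genes. At least 2-fold differences made up 48 of the higher and 97 of the lower genes, and at least 4-fold differences 12 and 25. The ranges of the 2 arrays of each line did not overlap for any of the 341 called genes, but they did not overlap for 58.0% of all genes either. No called gene had another probe set called in the opposite direction. In 3 of the higher genes both T47D-Y arrays, and in 14 of the lower genes both PR-A K388R arrays, were near the floor, so the size of those differences is limited by the low signal. With each array centred on its median the counts were 127 higher and 438 lower, which moves the share of higher calls from 34.0% to 22.5%. Leaving out 1 of the 4 arrays lowered the counts, most without T47D-Y replicate 1 (60 higher, 118 lower), and also without T47D-Y replicate 2 (75 and 143), PR-A K388R replicate 1 (101 and 223) and PR-A K388R replicate 2 (86 and 126).

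**Figure D1:**
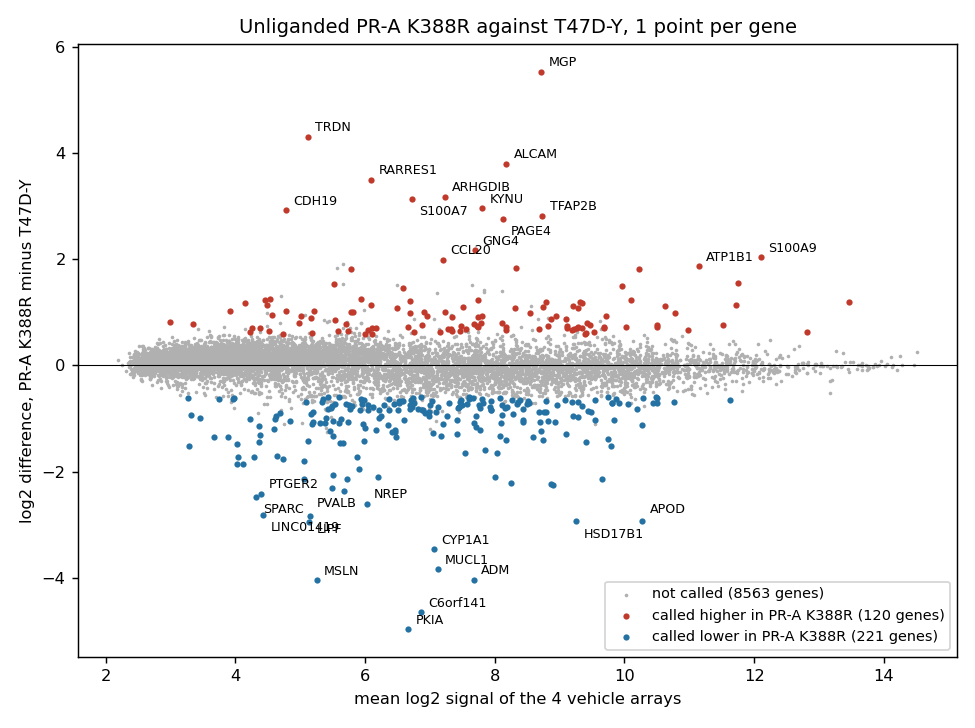
Mean log2 signal of the 4 vehicle arrays (x axis) against the log2 difference, PR-A K388R minus T47D-Y (y axis), with 1 point per gene. Red points are the 120 genes called higher, blue points the 221 called lower, and the 28 named genes are the 14 largest changes in each direction; they reach 5.53 for MGP and -4.97 for PKIA.

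The largest rise was that of MGP, matrix Gla protein, a secreted inhibitor of calcification. MGP was at 12.18 and 10.79 in PR-A K388R and at 5.61 and 6.29 in T47D-Y. The groups were far apart although the PR-A K388R arrays differed from each other by more than 2-fold. The difference was 5.53 ± 0.55 (SE), or 46.3-fold (adjusted p = 0.00062). TRDN, triadin, a calcium-release protein best known from muscle, had 7.56 and 6.99 against 2.73 and 3.19, the latter near the floor (difference 4.31, adjusted p = 4.18e-06). ALCAM, an adhesion molecule of the immunoglobulin superfamily also called CD166, had 10.23 and 9.92 in PR-A K388R against 6.11 and 6.45 (difference 3.80 ± 0.20, 13.9-fold, adjusted p = 7.93e-06). These genes were picked for large differences, so the wide gap between the lines follows from that choice.

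RARRES1, a gene induced by retinoic acid, had log2 signals of 7.98 and 7.71 in PR-A K388R and 4.40 and 4.29 in T47D-Y. Both arrays of each line lay close together, and the gene differed by 3.50 ± 0.14 (11.3-fold, adjusted p = 1.57e-06). KYNU, kynureninase of the tryptophan degradation pathway, was at 9.35 and 9.23 against 6.06 and 6.60 (difference 2.96, adjusted p = 0.000112). TFAP2B, an AP-2 transcription factor of luminal breast cells, was at 10.41 and 9.87 against 7.08 and 7.56 (difference 2.82, adjusted p = 0.000551). Of 10 luminal lineage factors measured it was the 1 called (10%, against 1.35% of all genes higher), and the list's median was -0.08. CDH19, a cadherin, and PAGE4, a cancer-testis antigen, were higher by 2.92 and 2.77. ATP1B1, the beta subunit of the sodium pump, was at 12.30 and 11.87 against 10.16 and 10.26, a rise of 1.87 (adjusted p = 0.0009).

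**Figure D2:**
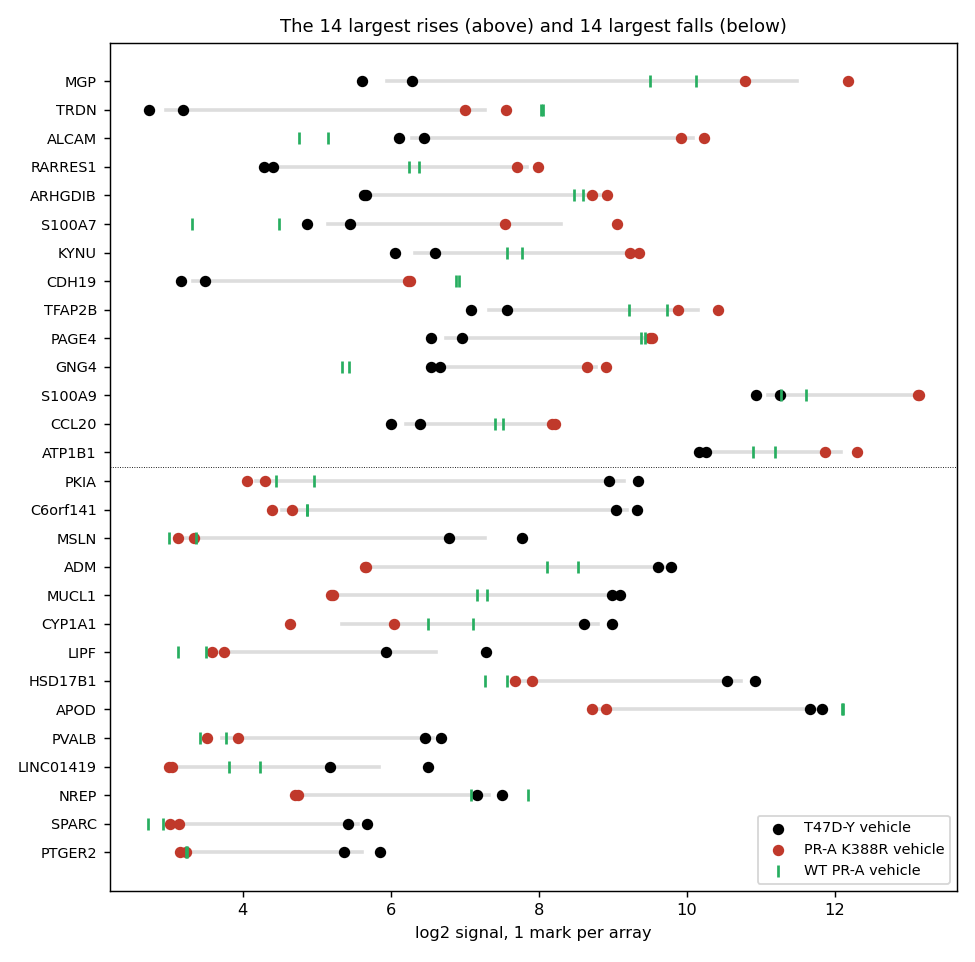
Log2 signal (x axis) of the 14 largest rises and the 14 largest falls, 1 mark per array: black points T47D-Y vehicle, red points PR-A K388R vehicle, green bars WT PR-A vehicle. In every row the red and black points are apart, because the rows were picked for large called differences between these arrays. The arrays of these lines also did not overlap for 58.0% of all genes. The WT PR-A bars lie with PR-A K388R for PKIA and HSD17B1, below T47D-Y for ALCAM and GNG4, and with T47D-Y for APOD and NREP.

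Falls were led by PKIA, the inhibitor peptide that binds and silences the catalytic subunit of protein kinase A. PKIA had log2 signals of 4.30 and 4.06 in PR-A K388R and 9.34 and 8.95 in T47D-Y. It fell by 4.97 on the log2 scale (SE 0.20, 31.2-fold, adjusted p = 1.57e-06). C6orf141, a gene of little known function, had 4.39 and 4.67 against 9.32 and 9.05 (difference -4.65, adjusted p = 3.13e-07). ADM, adrenomedullin, a secreted vasodilator peptide induced by hypoxia, had 5.66 and 5.64 against 9.78 and 9.60 (difference -4.04, adjusted p = 3.49e-05). These 3 genes were likewise picked for large differences, so their wide separation follows from that choice.

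MUCL1, a small mucin of breast epithelium, was at 5.22 and 5.19 against 8.99 and 9.10 (difference -3.84, adjusted p = 3.13e-07), and APOD, apolipoprotein D, a lipocalin abundant in breast cyst fluid, at 8.72 and 8.91 against 11.82 and 11.66 (difference -2.93, adjusted p = 1.75e-06). MSLN, mesothelin, a surface glycoprotein, had 3.12 and 3.34 in PR-A K388R, near the floor, and 7.77 and 6.79 in T47D-Y (difference -4.05, adjusted p = 4.49e-05). Further large falls were those of LIPF, gastric lipase (-2.95), PVALB, the calcium buffer parvalbumin (-2.84), the long non-coding RNA LINC01419 (-2.82), NREP (-2.61), SPARC, a matricellular protein (-2.48), and PTGER2, a prostaglandin E2 receptor (-2.42). LINC01419, SPARC and PTGER2 were near the floor on both PR-A K388R arrays.

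Steroid and xenobiotic metabolism had 1 gene higher and 5 lower of 55 measured (1.82% and 9.09%, against 1.35% and 2.48% of all genes), with a list median of 0.07; with 1 of the 4 arrays left out 0 to 1 were higher and 1 to 5 lower. CYP1A1, the aryl hydrocarbon receptor target that oxidises aromatic compounds and estrogens, was at 4.64 and 6.04 in PR-A K388R and 8.61 and 8.98 in T47D-Y. The difference of -3.46 ± 0.51 had an adjusted p of 0.00545, and of 0.0563 without T47D-Y replicate 2. HSD17B1, which reduces estrone to estradiol, was at 7.68 and 7.90 against 10.92 and 10.53, a fall of 2.94 on the log2 scale (adjusted p = 0.000355). HSD17B6, an oxidative 17-beta-hydroxysteroid dehydrogenase, was higher by 0.93 (adjusted p = 0.0110, rising to as much as 0.107 whichever of the 4 arrays was left out). SULT2B1, a sulfotransferase of sterols, was lower by 0.75 (adjusted p = 0.00796); that call was lost without PR-A K388R replicate 1 and without either T47D-Y array, with an adjusted p of up to 0.0835. CYP4F3, a fatty acid hydroxylase, was at 4.39 and 4.86 against 5.65 and 5.82 (difference -1.11, adjusted p = 0.0216), a call kept only without PR-A K388R replicate 2 (up to 0.145 without one of the others).

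The 250 bases before the CYP1A1 start (chr15:74725529-74725778, GRCh38.p14, minus strand, RefSeq) are shown because CYP1A1 is an aryl hydrocarbon receptor target. Capitals mark GCGTG, the core of the xenobiotic response element, and bases farther upstream were not searched.
CYP1A1: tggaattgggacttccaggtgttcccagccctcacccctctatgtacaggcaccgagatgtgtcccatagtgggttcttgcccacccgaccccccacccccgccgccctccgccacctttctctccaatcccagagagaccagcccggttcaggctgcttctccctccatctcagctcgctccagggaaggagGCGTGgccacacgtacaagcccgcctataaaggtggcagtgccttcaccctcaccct
The window held 1 match, beginning 57 bases before the start. A GCGTG on either strand was present in 38.5% of the 96 higher genes with a promoter sequence, 35.8% of the 176 lower genes, 39.1% of the 6908 tested genes and 31.9% of 27305 promoters, so the match is common and describes the window only.

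The S100 family of small calcium-binding proteins held the largest share of higher genes among the 45 lists examined. Of 13 members measured 4 were higher (30.8%, against 1.35% of all genes) and 0 lower, while the list's median difference was 0.22. S100A9 and S100A8, which pair to form the antimicrobial protein calprotectin, were already among the brightest signals. S100A9 was at 13.13 on both PR-A K388R arrays and at 10.93 and 11.25 in T47D-Y (difference 2.04 ± 0.16, adjusted p = 0.000112). S100A8 was at 14.18 and 13.92 against 12.69 and 13.03 (difference 1.19, adjusted p = 0.00185). With 1 of the 4 arrays left out, S100A9 differed by 1.84 to 2.24 and S100A8 by 0.98 to 1.40.

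S100A7, psoriasin, was at 7.53 and 9.05 in PR-A K388R and 4.86 and 5.45 in T47D-Y, a difference of 3.14 ± 0.60 (adjusted p = 0.0193). S100A12, calgranulin C, was at 6.49 and 6.83 against 5.49 and 5.56 (difference 1.13, adjusted p = 0.0264). The PR-A K388R arrays of S100A7 differed from each other by more than 2-fold; its call was lost without PR-A K388R replicate 2 and without either T47D-Y array (adjusted p up to 0.171), and that of S100A12 whichever of the 4 was left out (up to 0.213). In RefSeq gene order on chromosome 1, S100A9, S100A12, S100A8 and S100A7 are neighbours among the measured genes. The genes measured on either side were not called: PGLYRP3 before S100A9 (0.21), and S100A4 (-0.49), S100A3 (0.22), S100A2 (0.32), S100A13 (-0.07) and S100A1 (0.23) after S100A7. This order was looked at after the values were seen. In WT PR-A minus T47D-Y, which uses the same T47D-Y arrays, S100A9, S100A12, S100A8 and S100A7 differed by 0.35, -0.39, -0.36 and -1.26, none of them called.

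The 250 bases before the start of each of these 4 neighbours (GRCh38.p14, RefSeq) are given because the genes rose together; capitals mark TATAAA, the TATA box core. S100A9 is on the plus strand (chr1:153357604-153357853), and S100A12 (chr1:153375622-153375871), S100A8 (chr1:153391074-153391323) and S100A7 (chr1:153460652-153460901) are on the minus strand.
S100A9: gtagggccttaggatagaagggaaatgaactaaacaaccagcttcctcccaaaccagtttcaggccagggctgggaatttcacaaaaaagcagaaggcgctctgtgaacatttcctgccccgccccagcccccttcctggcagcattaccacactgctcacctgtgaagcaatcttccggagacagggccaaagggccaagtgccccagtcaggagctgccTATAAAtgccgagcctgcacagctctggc
S100A12: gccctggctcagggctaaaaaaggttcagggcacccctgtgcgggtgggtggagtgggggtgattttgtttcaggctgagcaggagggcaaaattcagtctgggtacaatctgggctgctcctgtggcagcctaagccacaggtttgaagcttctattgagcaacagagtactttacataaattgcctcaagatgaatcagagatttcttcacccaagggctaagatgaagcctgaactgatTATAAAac
S100A8: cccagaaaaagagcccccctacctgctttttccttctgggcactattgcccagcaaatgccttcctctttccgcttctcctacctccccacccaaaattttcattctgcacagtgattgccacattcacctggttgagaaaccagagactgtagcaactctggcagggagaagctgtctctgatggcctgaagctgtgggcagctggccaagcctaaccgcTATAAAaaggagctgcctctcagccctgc
S100A7: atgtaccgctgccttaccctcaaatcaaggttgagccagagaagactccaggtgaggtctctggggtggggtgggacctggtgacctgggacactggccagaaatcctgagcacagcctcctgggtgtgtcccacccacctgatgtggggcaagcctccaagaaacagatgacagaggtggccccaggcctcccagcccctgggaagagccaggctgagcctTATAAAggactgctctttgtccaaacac
TATAAA began 29 bases before the start of S100A9, 8 before S100A12 and 28 before S100A7. Of the 3 starts listed for S100A8, 2 had TATAAA within the 250 bases before them, and the window of the first of these is shown, where it began 29 bases before the start. On either strand it was in 13.5% of higher genes, 10.8% of lower genes, 8.32% of tested genes and 11.1% of all promoters. The PR-bound hexamer TGTTCT was in none of these 4 windows. It was found in 11.5% of the higher genes, 7.39% of the lower, 9.38% of those tested and 12.4% of all promoters. For GGTCA, the estrogen receptor core, the shares were 27.1%, 28.4%, 30.8% and 33.1%, and for TCACNCCAC, the sterol response element core, 0%, 0.568%, 0.738% and 0.875%. All were searched on both strands.

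Among 34 chemokines, cytokines and receptors 2 were higher and 2 lower (5.88% each, against 1.35% and 2.48% of all genes). The median was 0.21. CCL20, a chemokine for CCR6-bearing lymphocytes, was at 8.22 and 8.18 in PR-A K388R against 6.01 and 6.39 (difference 2.00, adjusted p = 0.000112). IL18, an IL-1 family cytokine, was at 9.57 and 9.20 against 8.08 and 8.30 (difference 1.19, adjusted p = 0.00234). IL1R1, the IL-1 receptor, was lower by 1.32 (adjusted p = 0.00332), and LIFR, the leukemia inhibitory factor receptor, by 0.99 with both PR-A K388R arrays near the floor (adjusted p = 0.00185). SLPI, a secreted inhibitor of leukocyte proteases, was at 12.43 and 12.63 against 10.83 and 11.12, a rise of 1.56 (adjusted p = 0.000655). LTF, the iron-binding lactoferrin of milk, was at 6.91 and 6.48 against 4.39 and 5.35 (difference 1.83, adjusted p = 0.0104, up to 0.0778 without PR-A K388R replicate 1 or T47D-Y replicate 1). Of 30 mucins and secreted epithelial products measured 3 were higher and 5 lower (10% and 16.7%, against 1.35% and 2.48% of all genes).

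Interferon-stimulated genes had 0 of 21 members called. Their median difference was 0.25, from -0.56 for ISG20 to 1.84 for IFI27 (adjusted p = 0.217), and 2 members had an unadjusted p under 0.05. The replicates of a line differed here: the mean over the 21 genes was 7.38 and 6.41 on the PR-A K388R arrays and 6.75 and 6.22 on the T47D-Y arrays, so the ranges overlapped. In WT PR-A minus T47D-Y 17 of the 21 were called higher (background 4.48% of genes higher and 4.03% lower) with a median of 2.55. In PR-A K388R minus WT PR-A 16 were called, counting both directions, where 3.49% of all genes were higher and 5.63% lower.

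Progestin targets are genes known to respond to PR with hormone, and 23 of them were measured. In the unliganded comparison 1 was higher (4.35%, against 1.35% of all genes) and 3 lower (13%, against 2.48%), and the median was 0.09. SGK1, a kinase that raises sodium transport and is induced by progestins and glucocorticoids, was at 4.61 and 4.34 in PR-A K388R and 6.50 and 6.57 in T47D-Y (difference -2.06 ± 0.27, adjusted p = 0.0029). With R5020 the PR-A K388R arrays of SGK1 rose by 4.92 over their vehicle arrays (adjusted p = 7.03e-05), a comparison that shares the PR-A K388R vehicle arrays. In it 12 of the 23 targets were called higher and 0 lower, against 1.25% of all genes higher. LIFR, given above, also rose with R5020 (adjusted p = 0.000467). BCL6, a transcriptional repressor, was lower by 0.60 (adjusted p = 0.0164), a call lost whichever of the 4 arrays was left out (up to 0.131). EDN1, the vasoconstrictor endothelin-1, was at 6.34 and 6.29 against 5.37 and 5.26, a rise of 1.00 (adjusted p = 0.00149), and its R5020 response in PR-A K388R was -0.03 (adjusted p = 0.97).

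The other 19 progestin targets were not called between the unliganded lines. FKBP5, a chaperone of steroid receptors, differed by -0.16, HSD11B2, which inactivates cortisol, by 0.09, NDRG1 by -0.72 and S100P by -0.13. These first values are PR-A K388R minus T47D-Y, both with vehicle. The responses of the same genes to R5020, that is R5020 minus vehicle within PR-A K388R, were 3.56, 3.59, 3.04 and 1.20. KLF9, PDK4, F3 and STAT5A differed between the vehicle lines by 0.17, 0.09, 0.32 and 0.18, and their responses to R5020 within PR-A K388R were 1.83, 1.34, 1.66 and 0.96. ZBTB16, CEBPD, DUSP1 and FOXO1 differed by -0.14, 0.07, -0.28 and 0.01 between the vehicle lines. Of these ZBTB16 was called with R5020 (0.70, adjusted p = 0.0191), and CEBPD (0.60, adjusted p = 0.126), DUSP1 (0.46, adjusted p = 0.263) and FOXO1 (0.27, adjusted p = 0.493) were not. HSD17B2 had the widest difference of those not called, 1.31 (adjusted p = 0.152), and DIO2, PAEP, IGFBP1, RGS2, WNT4 and ALPP lay between -0.04 and 0.45. None of these 7 was called with R5020, where they lay between -0.06 for HSD17B2 and 0.28 for RGS2. R5020-treated T47D-Y arrays were not analysed here.

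Of 22 estrogen targets measured 6 were lower (27.3%, against 2.48% of all genes) and 1 higher (4.55%, against 1.35%), with a median of -0.13. PRSS23, a serine protease, was at 7.14 and 7.26 in PR-A K388R against 9.06 and 8.65 (difference -1.66, adjusted p = 0.00114). Its other probe set differed by -0.0. TFF3, a trefoil peptide of mucous epithelium, was at 6.75 and 6.53 against 7.66 and 7.84 (difference -1.11, adjusted p = 0.000979), and IGFBP4, an IGF-binding protein, at 6.02 and 6.13 against 7.16 and 7.05 (difference -1.03, adjusted p = 0.000908). FHL2, a LIM-domain coregulator, was lower by 1.08 (adjusted p = 0.0045, 0.0576 without T47D-Y replicate 1). TFF1, another trefoil peptide, was lower by 0.83 (adjusted p = 0.00818, lost whichever of the 4 arrays was left out, up to 0.0895). CA12, a carbonic anhydrase, was the higher one, by 1.10 (adjusted p = 0.00647, 0.0693 without T47D-Y replicate 2). ESR1, the estrogen receptor gene, had a difference of -0.58 (adjusted p = 0.120). In WT PR-A minus T47D-Y, which uses the same T47D-Y arrays, 2 of the 22 were higher and 8 lower, with a median of -0.26. There 4.48% of all genes were higher and 4.03% lower.

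Protein kinase A signalling had 4 of 25 members lower (16%, against 2.48% of all genes) and 0 higher, with a median of -0.05; 2 to 3 were lower with 1 of the 4 arrays left out. Beside PKIA these were phosphodiesterases, the enzymes that break down cyclic AMP. PDE4B was at 4.89 and 4.97 in PR-A K388R against 6.66 and 6.13 (difference -1.47, adjusted p = 0.00223). PDE4D was lower by 1.13 (adjusted p = 0.0345) and PDE7A by 0.64 (adjusted p = 0.0239), and each kept its call with 1 of the 4 arrays left out, PDE4D without PR-A K388R replicate 2 and PDE7A without PR-A K388R replicate 1 (adjusted p up to 0.237 and 0.195 without one of the others). Insulin and IGF signalling had 3 of 15 members lower (20%, against 2.48% of all genes). These were IGFBP4, IGFBP2, lower by 0.69 (adjusted p = 0.00719), and GRB14, an adaptor of the insulin receptor, lower by 1.73 (adjusted p = 0.0128). IGFBP2 kept its call only without PR-A K388R replicate 1 (adjusted p up to 0.0805 without one of the others), and GRB14, near the floor in PR-A K388R, lost it without either PR-A K388R array (up to 0.0823).

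**Figure D3:**
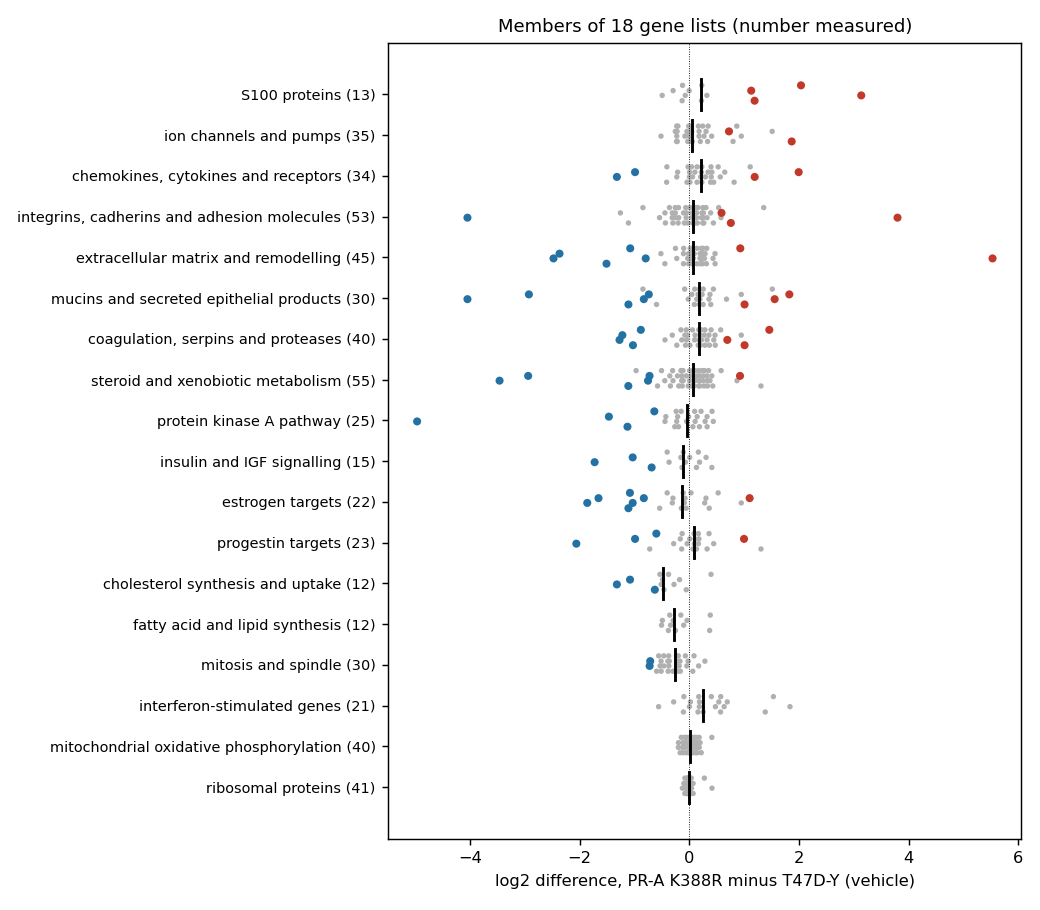
Log2 difference, PR-A K388R minus T47D-Y (x axis), for the measured members of 18 gene lists, 1 point per gene, with the number measured in parentheses. Red points were called higher, blue points called lower, grey points not called, and black bars are list medians; the cholesterol list has the lowest median, -0.48, and the ribosomal and oxidative phosphorylation lists hold no call.

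Matrix and adhesion genes split. In the matrix list 4.44% were higher and 11.1% lower, against 1.35% and 2.48% of all genes. Extracellular matrix and remodelling had 2 of 45 members higher, MGP and LAMB1, a laminin chain (0.93, adjusted p = 0.00983, up to 0.112 without PR-A K388R replicate 1 or T47D-Y replicate 1), and 5 lower. TIMP1, an inhibitor of metalloproteinases, was at 8.95 and 9.13 in PR-A K388R against 10.63 and 10.48 (difference -1.51 ± 0.12, adjusted p = 0.000112). THBS1, the matricellular thrombospondin, was at 4.18 and 4.81 against 7.53 and 6.19 (difference -2.37, adjusted p = 0.00854, 0.0698 without PR-A K388R replicate 1). MMP9, the gelatinase B, was lower by 0.79 (adjusted p = 0.0145), a call kept only without PR-A K388R replicate 2 (up to 0.122). VIM, the intermediate filament of mesenchymal cells, was at 7.57 and 7.39 against 8.88 and 8.87, a fall of 1.40 on the log2 scale (adjusted p = 0.00202), though its second probe set differed by 0.12. GJA1, the gap junction protein connexin 43, fell by 1.34 on the log2 scale with both PR-A K388R arrays near the floor (adjusted p = 0.00161). Of 53 adhesion molecules 3 were higher and 1 lower (5.66% and 1.89%). ICAM1 and ICAM2, ligands of leukocyte integrins, were higher by 0.76 and 0.59 (adjusted p = 0.0214 and 0.0248), but both calls were lost whichever of the 4 arrays was left out (up to 0.193 and 0.182).

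Among 40 genes of coagulation, serpins and proteases 3 were higher and 4 lower (7.5% and 10%, against 1.35% and 2.48% of all genes). The median was 0.18. CTSB and CTSL, the lysosomal proteases cathepsin B and L, were at 8.93 and 9.12 against 10.02 and 10.08 and at 8.32 and 8.38 against 9.30 and 9.16; the differences were -1.03 (adjusted p = 0.00283) and -0.88 (adjusted p = 0.00198). F8, coagulation factor VIII, was at 5.58 and 5.54 against 6.74 and 6.83 (difference -1.22, adjusted p = 0.000558). CSTA, the protease inhibitor cystatin A, was higher by 1.46 (adjusted p = 0.00545, 0.062 without PR-A K388R replicate 2). Its relative CST6, cystatin E/M, was at 6.17 and 6.66 against 7.56 and 7.81 (difference -1.27, adjusted p = 0.0272). SERPINA3, alpha-1-antichymotrypsin, and CPE, carboxypeptidase E, were higher by 1.01 and 0.69 (adjusted p = 0.0492 and 0.0254). The calls of CST6, SERPINA3 and CPE were lost whichever of the 4 arrays was left out (up to 0.174, 0.318 and 0.236).

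Hypoxia and glycolysis had 2 of 27 members higher and 2 lower (7.41% each, against 1.35% and 2.48% of all genes). The median was -0.04. Beside ADM the lower one was PFKP, the platelet-type phosphofructokinase, at 8.23 and 7.95 in PR-A K388R against 9.36 and 9.32 (difference -1.24, adjusted p = 0.00102), and its call was kept with each of the 4 arrays left out. SLC2A1, the glucose transporter GLUT1, and BNIP3, a mitophagy receptor of the BCL2 family, were higher by 0.69 and 0.73 (adjusted p = 0.032 and 0.0257). SLC2A1 lost its call whichever of the 4 was left out (up to 0.271), and BNIP3 kept it only without T47D-Y replicate 2 (up to 0.237). SEL1L belongs to the ubiquitin ligase that degrades misfolded proteins of the endoplasmic reticulum. It was the 1 called among 21 genes of the unfolded protein response and ATF4 (4.76%, against 2.48% of all genes lower). SEL1L was lower by 0.82 (adjusted p = 0.00767), with all 4 of its probe sets called lower. Its call was kept only without PR-A K388R replicate 2, and it differed by -0.88 to -0.76 with 1 of the 4 arrays left out.

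Signalling lists held few calls each. Of 31 genes of the TGF-beta, BMP and activin pathway 1 was higher and 1 lower (3.23% each, against 1.35% and 2.48% of all genes). TGFB1, the TGF-beta 1 ligand, was at 6.94 and 6.59 in PR-A K388R against 8.05 and 8.06 (difference -1.29, adjusted p = 0.00425), although its other probe set differed by 0.11. TGFBI, a matrix protein induced by TGF-beta, was at 5.53 and 5.92 against 4.85 and 4.55 (difference 1.02, adjusted p = 0.00776, up to 0.0829 without PR-A K388R replicate 2 or T47D-Y replicate 2). Of 31 semaphorins, ephrins and axon guidance genes 2 were higher and 2 lower (6.45% each). SEMA3C, a secreted semaphorin, was at 12.35 and 12.22 against 11.27 and 11.03 (difference 1.14, adjusted p = 0.00266), and its call was kept with each of the 4 arrays left out. PLXNA3, a semaphorin receptor, was lower by 0.82 (adjusted p = 0.00419, 0.0521 without T47D-Y replicate 2), and SEMA3F by 0.70 (adjusted p = 0.0303, kept only without PR-A K388R replicate 1, up to 0.226).

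Of 47 G protein subunits, RGS proteins and coupled receptors 2 were higher and 2 lower (4.26% each, against 1.35% and 2.48% of all genes). ADORA2B, an adenosine receptor that raises cyclic AMP, was at 6.69 and 5.88 in PR-A K388R against 4.45 and 5.06 (difference 1.53, adjusted p = 0.0365, kept only without PR-A K388R replicate 2, up to 0.286). NPY1R, a neuropeptide Y receptor, was at 4.63 and 4.18 against 6.06 and 5.59 (difference -1.42, adjusted p = 0.011, up to 0.124 without PR-A K388R replicate 2 or T47D-Y replicate 1). Among 20 immediate-early factors IER3 was higher by 0.76 (adjusted p = 0.0197, kept only without T47D-Y replicate 2, up to 0.182) and KLF6, a zinc finger factor, lower by 1.00 (adjusted p = 0.02, lost whichever of the 4 was left out, up to 0.18). ANXA6, a membrane-binding annexin, was the 1 called of 7 annexins, lower by 0.89 (adjusted p = 0.0129). Its call was kept only without PR-A K388R replicate 1, and it differed by -1.04 to -0.73 with 1 of the 4 arrays left out. The annexin call was 14.3% of its list, against 2.48% of all genes lower. The immediate-early calls were 5% each of theirs, against 1.35% of all genes higher and 2.48% lower.

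Cholesterol synthesis and uptake had 3 of 12 members lower (25%, against 2.48% of all genes; 1 to 2 with 1 of the 4 arrays left out) and 0 higher, and 11 of the 12 differences were below 0, with a median of -0.48. HMGCS1, which makes the HMG-CoA that feeds the mevalonate pathway, was at 7.28 and 7.55 in PR-A K388R and 8.76 and 8.71 in T47D-Y. Its fall of 1.32 on the log2 scale had an adjusted p of 0.000497. SQLE, squalene epoxidase, was lower by 1.08 (adjusted p = 0.0173), a call kept only without T47D-Y replicate 2 (up to 0.171 without one of the others). MVD, mevalonate decarboxylase, was lower by 0.63 (adjusted p = 0.0346), a call kept only without PR-A K388R replicate 1 (up to 0.263). LSS, FDPS and IDI1 had differences of -0.54, -0.49 and -0.51, under the fold threshold, and INSIG1, the sterol-sensing retention protein, was the 1 member above 0, at 0.40. In fatty acid and lipid synthesis 10 of 12 differences were below 0 (median -0.27), and 0 were called in limma, 9 having an unadjusted p under 0.05. Over all genes with a mean log2 signal over 6, 1581 of 3739 differences were above 0, with a median of -0.04. In WT PR-A minus T47D-Y, which uses the same T47D-Y arrays, 6 of the 12 cholesterol genes were lower and 0 higher (median -0.60). Of the 12 fatty acid and lipid genes 5 were lower there and 0 higher (median -0.28), while 4.03% of all genes were lower.

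Mitosis and spindle genes had 2 of 30 members lower (6.67%, against 2.48% of all genes) and 0 higher. Of the 30 differences 26 were below 0, with a median of -0.27, against -0.04 over all genes with a mean log2 signal over 6. ESPL1, separase, was at 9.47 and 9.45 against 10.06 and 10.28 (difference -0.71, adjusted p = 0.0108), and AURKA, a centrosomal kinase, at 9.52 and 9.86 against 10.54 and 10.29 (difference -0.72, adjusted p = 0.0323). ESPL1 kept its call only without T47D-Y replicate 1 (up to 0.105) and AURKA only without PR-A K388R replicate 2 (up to 0.269). DNA replication and nucleotide synthesis had 1 of 35 higher (2.86%, against 1.35% of all genes) and a median of 0.03. The higher gene was the replication kinase CDC7 (0.63, adjusted p = 0.0147). Its call was lost whichever of the 4 arrays was left out, where it differed by 0.58 to 0.68. BID and BIK, pro-apoptotic members of the BCL2 family, differed by 0.60 (adjusted p = 0.0447, lost whichever of the 4 was left out, up to 0.258) and -0.69 (adjusted p = 0.0293, up to 0.21, kept only without T47D-Y replicate 1).

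The SUMO pathway had 1 of 11 members lower, PIAS3, a SUMO ligase, at 8.19 and 8.08 in PR-A K388R against 8.94 and 8.78 (difference -0.72, adjusted p = 0.00984, up to 0.124 without PR-A K388R replicate 2 or T47D-Y replicate 1). Among 25 nuclear receptor coregulators and histone deacetylases HDAC9, a class IIa deacetylase, was the 1 called, higher by 0.91 (adjusted p = 0.00554, 0.0609 without T47D-Y replicate 2). None of 23 nuclear receptors was called; VDR, the vitamin D receptor, had 0.57 (adjusted p = 0.0562). HDAC9 was lower by 1.54 with R5020 in PR-A K388R (adjusted p = 0.000644). The 1 call was 9.09% of the SUMO list, against 2.48% of all genes lower, and 4% of the coregulator list, against 1.35% higher. In all, 13 of the 45 lists held no called gene, among them 40 oxidative phosphorylation genes (median 0.02, differences -0.20 to 0.41), 41 ribosomal protein genes (median -0.01), 27 Ras and MAPK modulators, 13 steroid receptor chaperones and 10 MHC class I genes.

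To see which of these genes also differed between the PR-A lines, PR-A K388R was set against WT PR-A, both with vehicle. The comparison cannot tell the mutation from other differences between these lines. There 3.49% of genes were higher and 5.63% lower. Of the 120 genes higher than in T47D-Y, 62 were also higher than in WT PR-A, 14 lower and 44 not called; of the 221 lower genes, 86 were also lower, 14 higher and 121 not called. Both comparisons use the PR-A K388R vehicle arrays, so these counts are given side by side only. APOD was 12.09 and 12.11 in WT PR-A and differed by -3.29 (adjusted p = 6.98e-07), and SLPI was 10.53 and 10.50 and differed by 2.02 (adjusted p = 5.65e-05). PKIA and HSD17B1 differed by -0.52 (adjusted p = 0.136) and 0.37 (adjusted p = 0.45), which does not show that the PR-A lines were alike. MGP was at 9.50 and 10.13 in WT PR-A, between the other lines, and differed from PR-A K388R by 1.67 (adjusted p = 0.0927).

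For 6 of the 98 named genes called, the PR-A lines lay on opposite sides of T47D-Y, each difference from T47D-Y being called. Over all genes, 4.48% were called higher and 4.03% lower in WT PR-A minus T47D-Y. ALCAM was at 4.76 and 5.15 in WT PR-A, below T47D-Y, so that PR-A K388R exceeded WT PR-A by 5.13 (adjusted p = 1.09e-06). GNG4, a G protein gamma subunit, was at 8.90 and 8.64 in PR-A K388R, 6.66 and 6.55 in T47D-Y and 5.34 and 5.44 in WT PR-A. DKK1, a secreted Wnt inhibitor, was at 3.85 and 3.74, 5.62 and 5.38, and 11.79 and 11.63 in the same order, a difference of -7.92 between the PR-A lines (adjusted p = 4.43e-08). None of these arrays overlapped between lines, which between PR-A K388R and T47D-Y also held for 58.0% of all genes. TIMP1 and F8 were below T47D-Y in PR-A K388R and above it in WT PR-A, and BID the reverse.

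**Figure D4:**
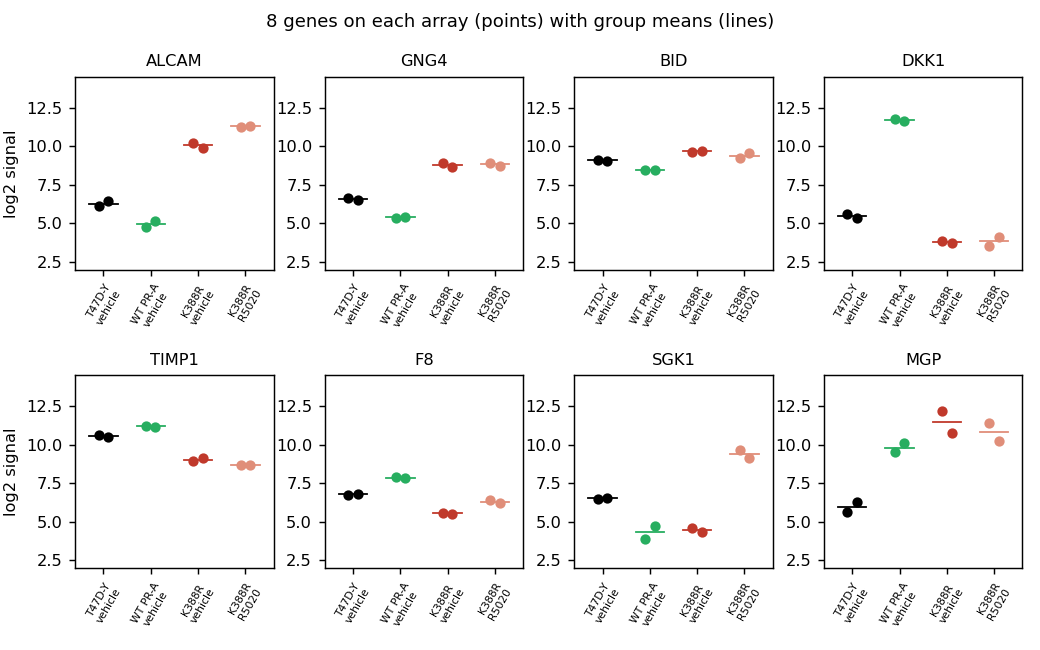
Log2 signal (y axis) of 8 genes on the arrays of T47D-Y vehicle, WT PR-A vehicle, PR-A K388R vehicle and PR-A K388R with R5020, 1 point per array with lines at group means of 2 arrays. ALCAM, GNG4 and BID are highest in PR-A K388R and lowest in WT PR-A, DKK1, TIMP1 and F8 the other way round, and SGK1 is low in both unliganded PR-A lines and highest with R5020.

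The higher genes were unevenly spread over the chromosomes. Chromosome 7 held 26 of the 120, or 6.13% of its 424 measured genes against 1.35% of all genes, and 8 lower genes; the next highest share was 2.31% on chromosome 21. Of the 26, 18 lay in 1 stretch, from MKRN1 to VIPR2, the last gene measured toward the end of the long arm. The stretch was picked after the values were seen, so its vehicle counts are a description. It holds 67 measured genes, of which 18 were higher and 0 lower. Of its 29 genes with a mean log2 signal over 6, 17 were higher and all 29 differences were above 0, from 0.12 to 1.18, with a median of 0.72; off the stretch, 72 of 3710 such genes were higher (1.94%) and the median was -0.05. Its 38 dimmer genes had 1 call and a median of 0.14. On the rest of chromosome 7 the median of 161 such genes was 0.01, with 7 higher and 5 lower. Leaving out any 1 of the 4 arrays gave 8 to 11 higher genes and a median of 0.64 to 0.78 in the stretch, and median centring 16 and 0.65.

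EZH2, the histone H3 lysine 27 methyltransferase of Polycomb complex 2, lies in this stretch and was at 9.90 and 9.64 in PR-A K388R against 8.69 and 8.61 in T47D-Y (difference 1.12 ± 0.13, adjusted p = 0.00143). RHEB, the GTPase that activates mTORC1, was at 11.86 and 11.95 against 11.14 and 11.12 (difference 0.77). Both genes were separated between lines by more than their replicates differed. MKRN1, a ubiquitin ligase, was at 11.35 and 11.20 against 10.27 and 10.31 (difference 0.99), and NUB1, which lowers NEDD8 conjugation, at 9.88 and 9.99 against 8.91 and 8.60 (difference 1.18). Also higher there were EPHA1, an ephrin receptor (1.08), ZYX, the focal adhesion protein zyxin (0.91), CDK5, a kinase (0.74), TRPV6, an epithelial calcium channel (0.72), SSBP1, a mitochondrial DNA-binding protein (0.63), and the zinc finger genes ZNF398 (1.09), ZNF212 (0.98) and ZNF777 (0.79). These genes have varied roles and share their position. EPHA1 and TRPV6 are members of the lists, and the others were named after their values were seen.

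The stretch was then read in 2 other comparisons. In WT PR-A minus T47D-Y, which shares only the T47D-Y arrays, the 29 genes had a median of -0.03, with 2 higher and 3 lower. The R5020-treated lines, PR-A K388R minus WT PR-A, share no array with the comparison above. There 28 of the 29 differences were above 0 with a median of 0.82, and 22 were called higher and 0 lower. Off the stretch, 313 of 3710 genes with a mean log2 signal over 6 were called higher there and 364 lower. Their median was 0.02. In that comparison EZH2 differed by 1.26, MKRN1 by 1.29 and NUB1 by 1.11, whereas UBE3C and ESYT2, the last 2 higher genes toward the chromosome end, differed by 0.05 and -0.54. In WT PR-A, UBE3C and ESYT2 likewise exceeded T47D-Y, by 0.66 and 0.64. DNA copy number was not measured, and its part in these values was not tested.

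**Figure D5:**
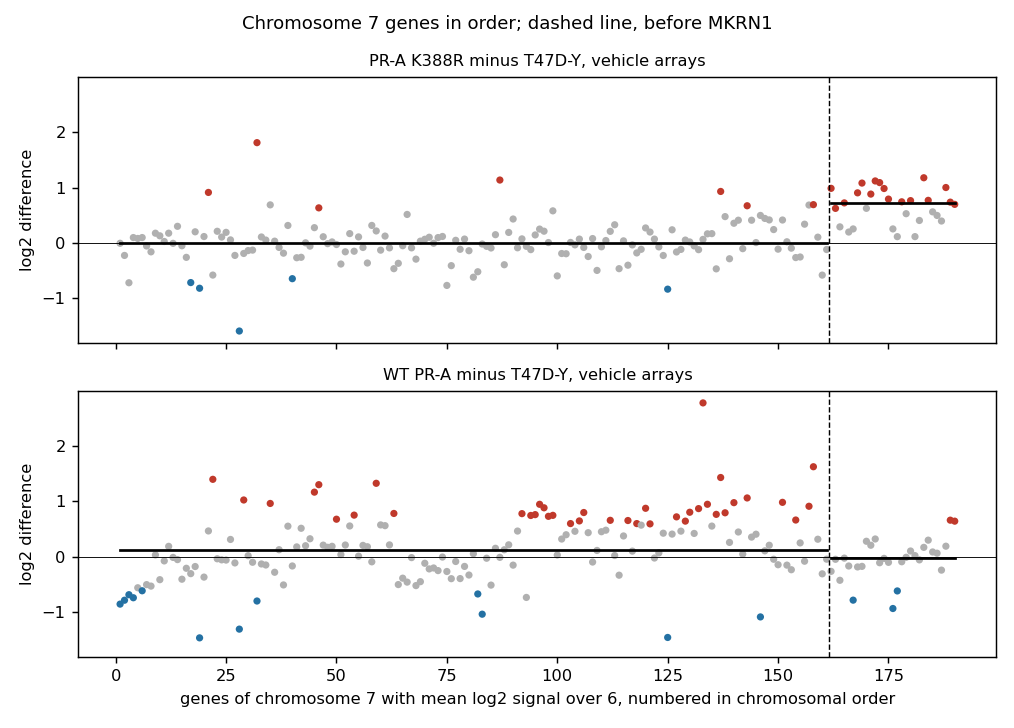
Log2 difference from T47D-Y (y axis) of the chromosome 7 genes with a mean log2 signal over 6, numbered in chromosomal order (x axis), for PR-A K388R (top) and WT PR-A (bottom), vehicle arrays. Red and blue points were called higher and lower, horizontal lines are medians before and after the dashed line at MKRN1; to its right the median is 0.72 for PR-A K388R and -0.03 for WT PR-A.

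The calls rest on limma's moderated variances over 4 residual degrees of freedom. Unmoderated analysis of variance contrasts, the kind of test the study's methods name, left 7 probe sets higher and 8 lower. ALCAM, GNG4, CA12, PRSS23, VIM, BNIP3, THBS1, ICAM1, PDE4D, TGFB1, SLC2A1, HDAC9, TRPV6 and PLXNA3 each had 1 or more probe sets not called. Of HDAC9 and PLXNA3 only 1 of 3 probe sets was called, and of THBS1 2 of 4. The probe set farthest from the call lay at -0.0 for PRSS23, -0.08 for PDE4D and 0.11 for HDAC9. For PLXNA3 it lay at 0.14, opposite in sign to the call.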

How the data were processed

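RNA of 5 groups of T47D-derived cells, 2 arrays each, was measured on Affymetrix U133 Plus 2 arrays. The authors deposited log2 signals, processed in Partek per the labels; background correction and normalization are not given in the sources used here. The table analysed holds a part of the array's probe sets. Its 12547 with 1 symbol, of which 12528 matched a RefSeq gene, were tested and counted. Another 457 with several symbols and 3372 with none listed entered only the fit and the multiple-testing adjustment.

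In the deposited log2 values, replicates 1 and 2 summed over the groups were equal in each probe set (to within 3e-04; 0.228 to 0.255 in the median with 1 group exchanged), so the replicate number had been removed. The fit in limma 3.58.1 (R 4.3.3) therefore took all 10 arrays, a mean for each group and the replicate number as a block (4 residual and 5.62 prior degrees of freedom). Benjamini-Hochberg adjustment covered the 16376 probe sets, and calls needed an adjusted p under 0.05 and 1.5-fold. The number of arrays limits the precision.

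Text names the 14 largest called changes per direction, up to 4 called members per direction of each of 45 lists, and the progestin targets; 5 called genes under this rule, 1 of them among the largest rises, are not reported here. The comparison, the lists and the rules were chosen with earlier results of these data known. The fit was tested on simulated data. Alternatives were no block, unmoderated contrasts, an intensity trend, quantile normalization, median centring, a filter on dim probe sets, 2-fold, unadjusted p, the 4 arrays alone, another probe set per gene, and leaving out each array, its partner being given the spread of the remaining groups. Plots used Python 3.11.15 with matplotlib 3.10.9.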

Additional observations from a re-analysis of the deposited data

Results flagged for a closer look

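For 6 of the 98 named genes called, the effect of an unliganded PR-A line against T47D-Y was called in opposite directions for the mutant and the unmutated receptor. The rule also required a called difference between both PR-A lines in limma. Opposite calls against the same T47D-Y arrays largely fix that difference in advance, so its adjusted p adds no separate support. PR-A K388R minus WT PR-A was 5.13 for ALCAM, 3.38 for GNG4 and 1.22 for BID, which were higher than T47D-Y in PR-A K388R and lower in WT PR-A. It was -7.92 for DKK1, -2.15 for TIMP1 and -2.30 for F8, which were lower than T47D-Y in PR-A K388R and higher in WT PR-A. The adjusted p lay between 4.43e-08 for DKK1 and 0.000556 for BID. BID was 0.60 above T47D-Y, close to the fold threshold, and lost that call whichever of the 4 arrays was left out. Each PR-A line is represented by 1 transfectant, so the mutation and the line cannot be told apart.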

How the results depend on the processing

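The count of probe sets higher, lower and called against WT PR-A was 154, 299 and 1077. Without the replicate block it was 174, 359 and 1131; with unmoderated contrasts 7, 8 and 342; with at least 2-fold 59, 123 and 427. An intensity trend gave 175, 350 and 1146, quantile normalization 181, 288 and 1072, median centring 127, 438 and 1127, leaving out the 40% dimmest probe sets 154, 290 and 1036, unadjusted p 215, 424 and 1208, and the 4 arrays alone 113 and 229. Leaving out each of the 10 arrays gave 60 to 157, 118 to 322 and 636 to 1117, the last count falling to 636 without WT PR-A vehicle replicate 1.

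Of 98 named genes called, 98 kept their call with no replicate block, 98 with a trend, 95 with quantile normalization, 95 with centring, 92 without the dimmest probe sets (6 could not be fitted), 63 at 2-fold, 81 with the 4 arrays alone, 6 without moderation, and 60 to 66 without 1 of the 4 arrays; none changed direction. With the most variable probe set per gene BNIP3 (0.50) and ICAM1 (0.34) were no longer called. Centring shifts the median difference over probe sets by -0.069. With replicate effects removed before deposit, correlations of replicate deviations (-0.0949 between these groups) cannot show pairing.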
